A study of Homo sapiens with 44 samples.

Results

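Aminoacyl-tRNA synthetases are the enzymes that join each amino acid to its transfer RNA, the step that feeds both cytosolic and mitochondrial protein synthesis. Most amino acids have a cytosolic enzyme and a separate mitochondrial enzyme, both encoded in the nucleus. Many cytosolic synthetase genes are known targets of ATF4, the transcription factor of the amino acid and stress response, which binds C/EBP-ATF response elements. The 36 synthetase genes followed here were 20 cytosolic members and 16 mitochondrial members, the latter with symbols that end in RS2. Membership follows the gene names. All 36 of 36 were found in the count table of 58735 genes and in the table of 27315 symbols, and all passed the filters on low values.

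RNA was measured in 14 libraries of polyadenylated RNA from 2 human triple-negative breast cancer cell lines, MDA-MB-231 and SUM149, both established lines. Small interfering RNA (siRNA) was used at 20 nM and cells were harvested at 48 h, so the control groups carry a transfected siRNA too. The 7 groups of 2 biological replicates were MDA-MB-231 with control siRNA, siRelA or siRelB in one experiment, and MDA-MB-231 or SUM149 with control siRNA or siEZH2 in the other. RELA and RELB are DNA-binding subunits of the transcription factor NF-kB, while EZH2 methylates histone H3 within a Polycomb repressive complex. The sources used here do not give the siRNA sequences or how many were used per target. Libraries of the first experiment were prepared by Novogene and those of the second by a university sequencing facility, and the values were deposited in different units, so levels are compared only within each. The first is given as CPM (counts scaled for library size and composition), and the second as variance-stabilised (VST) values on a log2-like scale whose lowest value is 7.12.

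The targeted genes fell in their own knockdowns. RELA counts were 3562 and 3391 in the controls and 265 and 275 after siRelA, RELB counts were 923 and 916 in the controls and 90 and 107 after siRelB, and siRelA also lowered RELB, to 377 and 295. EZH2 fell by 2.52 VST units in MDA-MB-231 and by 2.00 in SUM149. RELB was lower after siEZH2 too, with mean VST from 9.76 to 8.74 in MDA-MB-231 and from 9.54 to 9.05 in SUM149. The total counts per library ran from 18599848 to 24431753. The VST table gives no totals. ESR1 and PGR were at or near the lowest value in both lines, while ERBB2 had a mean of 10.9 VST in MDA-MB-231 and 9.22 in SUM149 control cells. Of the epithelial markers in SUM149 controls, CDH1 (mean 8.36 VST), ESRP1 (8.02), KRT14 (7.20) and CLDN4 (7.55) lay near the lowest value. KRT5 (10.3) and EPCAM (10.8) lay well above it, and KRT6B (8.53) and KRT17 (8.93) between. In MDA-MB-231 controls CLDN4 (11.5) and EPCAM (10.7) lay well above the lowest value, and the other epithelial markers near it. In the same cells FN1 stood at 17.7 and the fibroblast gene DCN at 11.2 VST, and the part of these levels in the comparisons of the lines was not tested. CD3E, a T-cell gene, was at the lowest value in all groups of that table and at 0 counts in the other.

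The cytosolic genes were the more abundant class. Per kilobase of transcript in MDA-MB-231 control cells, cytosolic members ran from 11.1 CPM (FARSB, a subunit of the phenylalanine enzyme) to 200 CPM (TARS, the threonine enzyme), with a median of 65.3. Mitochondrial members ran from 1.11 CPM (SARS2, the serine enzyme) to 60.2 CPM (IARS2, the isoleucine enzyme), with a median of 9.58. The SARS2 value is uncertain, because 77.5% of its transcript is shared with a gene on the same strand, and PARS2 came next at 3.77 CPM. The lower counts of the mitochondrial genes gave them wider errors in this table, with a median standard error of 0.14 log2 units against 0.09 for the cytosolic genes. In the VST table the median standard errors were alike, at 0.06 in both classes. There SARS2 was not the lowest in MDA-MB-231 controls, with a mean of 9.83 VST against 9.62 for PARS2.

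Promoter sequences show what several cytosolic members have in common. RefSeq promoter windows on GRCh38.p14, from 250 bases before to 50 bases after each annotated start, were found for 30 of the 36 members, 16 cytosolic and 14 mitochondrial. TGATGNAA, the core of the C/EBP-ATF response element, was searched on both strands. It was present in the windows of 7 cytosolic genes and 1 mitochondrial gene. By windows, of which a gene can have several, that was 8 of 39, against 3.62% of all 35116 windows in the table. The stretches of 30 bases around each match are shown because these genes recur in the results below. Each runs 5′ to 3′ on the strand of its gene, and the capitals mark the match.
TARS: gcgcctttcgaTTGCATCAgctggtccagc
GARS: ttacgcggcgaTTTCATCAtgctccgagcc
IARS: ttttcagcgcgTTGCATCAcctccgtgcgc
CARS: cggggcggcggTTGCATCAgattctaggaa
MARS: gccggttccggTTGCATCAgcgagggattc
AARS: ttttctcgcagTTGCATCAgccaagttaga
NARS: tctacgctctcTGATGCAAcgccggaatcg
YARS2: atccacactgcTGATGGAAaaattaagttt
In 6 of the 7 cytosolic genes the match lay on the strand opposite to the gene, so it reads TTGCATCA or TTTCATCA, and in NARS and YARS2 it lay on the strand of the gene. The stretches lie at chr5:33440956-33440985 (TARS, + strand), chr7:30594834-30594863 (GARS, +), chr9:92293692-92293721 (IARS, -) and chr11:3057407-3057436 (CARS, -). The others lie at chr12:57488053-57488082 (MARS, +), chr16:70289675-70289704 (AARS, -), chr18:57621804-57621833 (NARS, -) and chr12:32756076-32756105 (YARS2, -). Relative to the start of the canonical transcript in GENCODE, the match began 2 bases into the first exon of TARS and 14 into that of NARS. It spanned the start itself in CARS and MARS, and lay upstream in GARS, IARS, AARS and YARS2. The E-box CACGTG, which MYC and other factors bind, was in windows of IARS, MARS2, CARS2 and EARS2 (5 of 39), against 7.26% of all windows. The NF-kB-like GGGNNTTCC was in those of RARS, RARS2 and CARS2 (3 of 39), near the 6.58% of all windows. Forms of the NF-kB site with another spacing were not searched, so this count does not cover them. A match is only a run of letters, and binding at these windows was not examined.

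After siRelA in MDA-MB-231 cells, 13 of 20 cytosolic synthetase mRNAs fell, while 15 of 16 mitochondrial ones did not pass the test. Genes count as changed here at a Benjamini-Hochberg adjusted p under 0.05 over all genes tested, from the quasi-likelihood test of edgeR. Of the 20 cytosolic genes 13 fell and 1 rose, where 10.2% of all genes tested fell and 8.82% rose. Of the 16 mitochondrial genes 1 fell and 0 rose. The median log2 change was -0.29 for the cytosolic and 0.09 for the mitochondrial genes, and 0.02 for all genes tested. In each library, the mean log2 CPM of the cytosolic class was 7.54 and 7.50 in the controls and 7.29 and 7.23 after siRelA. For the mitochondrial class it was 4.67 and 4.69 in the controls and 4.64 and 4.71 after siRelA. The siRelA libraries therefore lay below both controls for the cytosolic mean, and overlapped them for the mitochondrial mean. As a share of all counts, the cytosolic genes held 0.408% and 0.405% in the controls and 0.360% and 0.347% after siRelA. The mitochondrial genes held 0.0611% and 0.0621% in the controls and 0.0679% and 0.0668% after siRelA, higher without overlap. The share is taken of the raw total of each library and weighs abundant genes most, whereas CPM is also scaled for composition. The mean log2 CPM and the share thus differ in both scaling and weighting, and the part of each was not tested. In bulk RNA, fewer cells of a kind and less RNA per cell cannot be told apart.

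**Figure D1:**
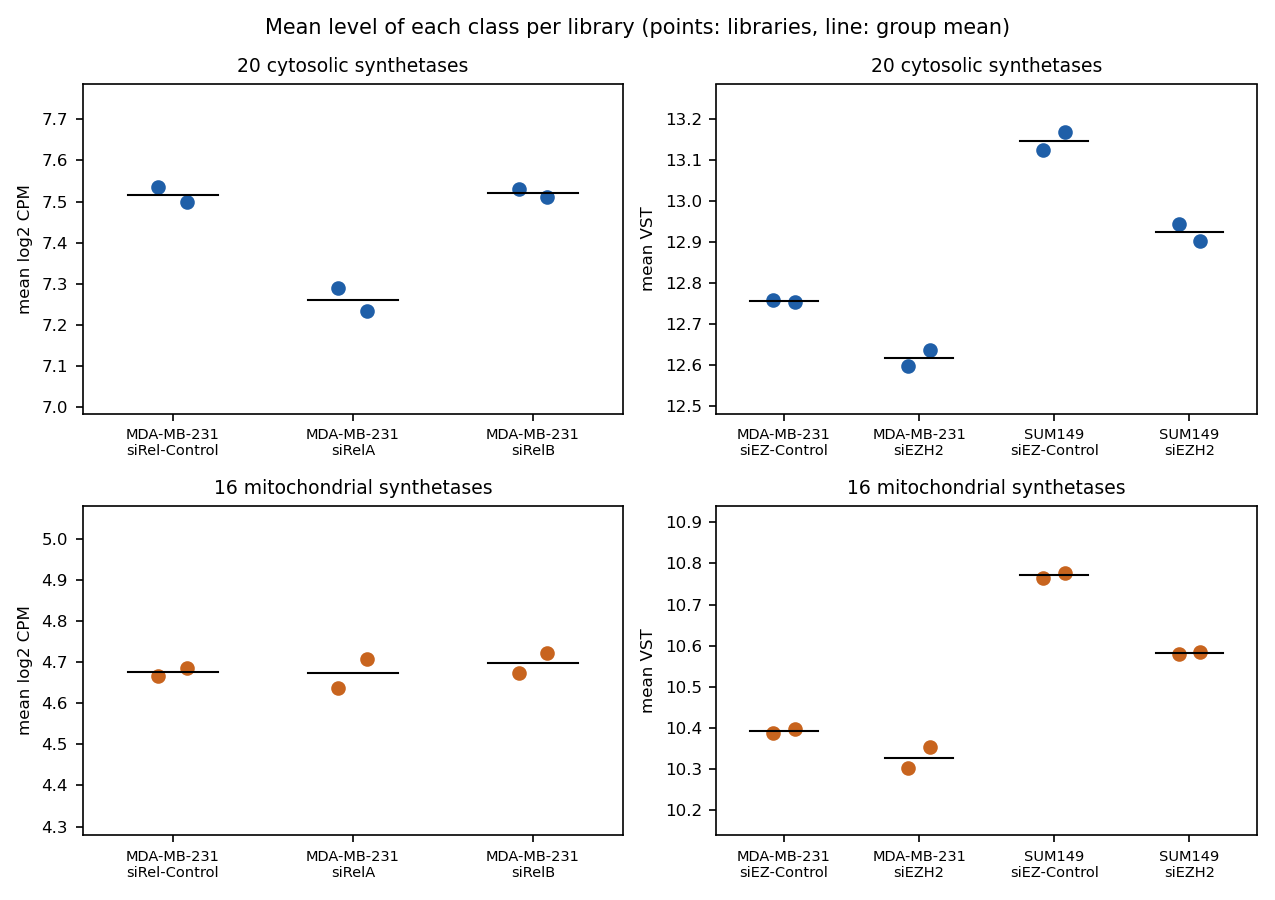
Mean level of the 20 cytosolic (top) and 16 mitochondrial (bottom) synthetase genes in each library, as log2 CPM on the left and VST on the right; points are libraries and lines are group means. The cytosolic mean of the siRelA libraries (7.29 and 7.23) lies below both controls (7.54 and 7.50), while both classes are higher in SUM149 than in MDA-MB-231 controls.

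DARS, the aspartate enzyme and a member of the multisynthetase complex, had the largest fall after siRelA. Its CPM was 133 and 132 in the controls, 86.1 and 85.1 after siRelA and 119 and 113 after siRelB. Its siRelA libraries lay below every other library, a fall of 0.63 ± 0.09 (SE) log2 units (adjusted p = 5.97e-05, edgeR). YARS, the tyrosine enzyme, had 183 and 163 CPM in the controls, and 126 and 115 after siRelA. That was a fall of 0.52 ± 0.09 (adjusted p = 0.000564, edgeR), again without overlap of the groups. FARSA, the catalytic subunit of the phenylalanine enzyme, fell from 165 and 149 CPM to 102 and 116 CPM, or by 0.52 ± 0.09 log2 units (adjusted p = 0.000658, edgeR). Its partner subunit FARSB fell by 0.31 ± 0.09.

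The serine enzyme SARS fell by 0.43 log2 units after siRelA, the cysteine enzyme CARS by 0.41, the threonine enzyme TARS by 0.36, the valine enzyme VARS by 0.34 and the asparagine enzyme NARS by 0.24. GARS (glycine) and KARS (lysine), each a single gene that serves both compartments, fell by 0.41 and 0.26. QARS, the glutamine enzyme, went the other way. Its CPM was 135 and 141 in the controls, 194 and 203 after siRelA, and 161 and 174 after siRelB, so that the 3 groups did not overlap. QARS rose by 0.52 ± 0.08 after siRelA (adjusted p = 0.000281, edgeR) and by 0.28 ± 0.08 after siRelB (adjusted p = 0.0272, edgeR). Of the 8 enzymes known to form the multisynthetase complex, a grouping made after the values were seen, DARS, IARS, KARS and MARS fell, QARS rose and EPRS, LARS and RARS did not pass the test. Of the 12 outside it, 9 fell. EPRS, a fused enzyme for glutamate and proline, had a change of -0.07 ± 0.08, and the tryptophan enzyme WARS one of -0.06 ± 0.09.

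EARS2, the glutamate enzyme of mitochondria, was the mitochondrial gene that fell after siRelA, from 33.1 and 36.2 CPM to 25.9 and 26.8 CPM (-0.40 ± 0.12, adjusted p = 0.0308, edgeR). YARS2, for tyrosine, lay just outside the threshold with 32.7 and 29.7 CPM in the controls and 19.7 and 26.2 after siRelA (-0.44 ± 0.15, adjusted p = 0.0519, edgeR). It passed under 6 of the 7 other settings that keep all libraries, and without siRelA replicate 2 (-0.67), and NARS lay just inside (adjusted p = 0.0451, edgeR). The other mitochondrial changes ran from -0.38 for NARS2 to 0.34 for RARS2. SARS2 rests on 27 to 62 counts per library, and 77.5% of its canonical transcript is shared with a gene on the same strand, so its values are uncertain. Which calls held depended on the libraries. The siRelA comparison counted 15 synthetase genes, but 8 without control replicate 1, 9 without control replicate 2 and 13 without either siRelA replicate. DARS, FARSA, GARS, QARS, SARS, TARS and YARS passed under every alternative.

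**Figure D2:**
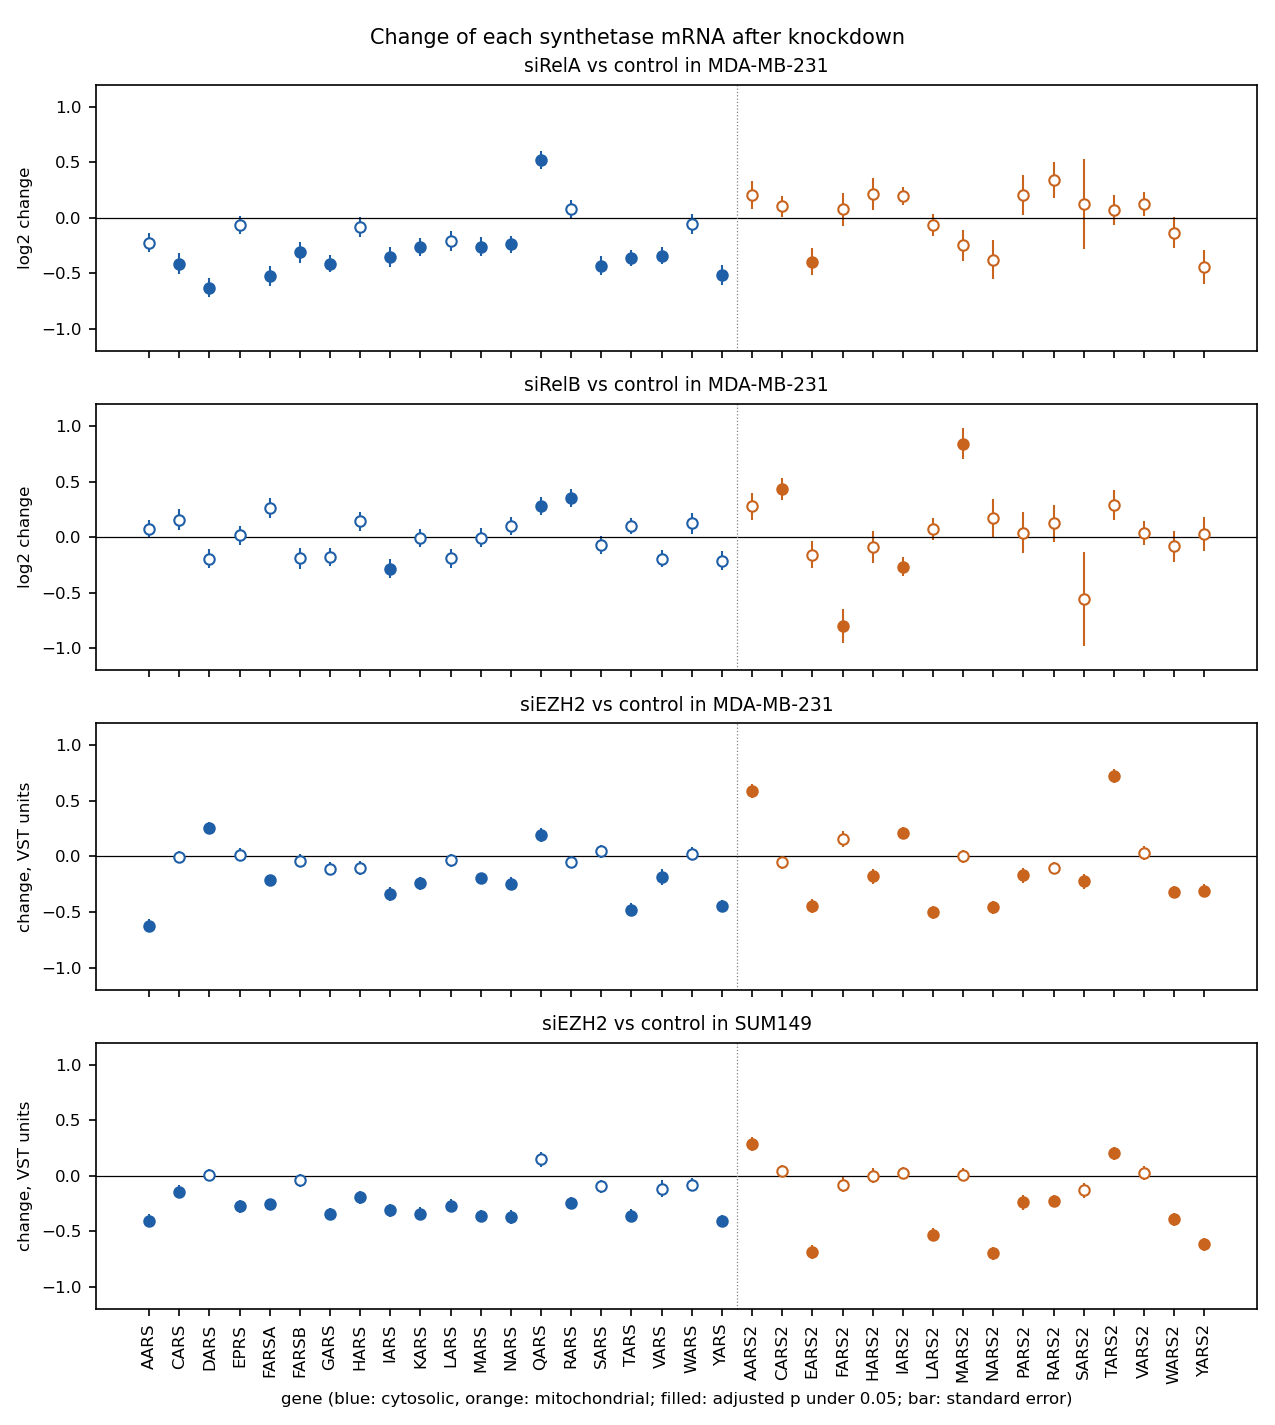
Change of each of the 36 synthetase mRNAs in 4 knockdown comparisons, in log2 units (edgeR, upper 2 panels) or VST units (limma, lower 2 panels); blue is cytosolic, orange mitochondrial, bars are standard errors and filled points have an adjusted p under 0.05. After siRelA 13 filled blue points lie below 0 and QARS lies above it, while after siEZH2 filled points of both colours lie on both sides in MDA-MB-231.

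After siRelB, in the same line and against the same control libraries, few synthetase genes changed. Of the cytosolic genes 2 rose and 1 fell, and of the mitochondrial genes 2 rose and 2 fell, where 7.45% of all genes tested rose and 10.8% fell. The medians were 0.01 for cytosolic and 0.04 for mitochondrial genes. The largest changes were in mitochondrial enzymes. MARS2, the methionine enzyme, had 18.9 and 21.1 CPM in the controls, 15.7 and 17.9 after siRelA, and 38.0 and 33.6 after siRelB. Both siRelB libraries lay above all others, a rise of 0.84 ± 0.14 log2 units (adjusted p = 0.000426, edgeR). FARS2, the phenylalanine enzyme of mitochondria, had 19.9 and 22.8 CPM in the controls, 22.6 and 22.4 after siRelA, and 11.1 and 13.3 after siRelB. It fell by 0.80 ± 0.15 after siRelB (adjusted p = 0.00153, edgeR), with its siRelB libraries below all others.

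CARS2 rose by 0.43 ± 0.10 after siRelB, and the cytosolic arginine enzyme RARS rose by 0.35 ± 0.08, from 156 CPM in both controls to 197 and 201 CPM. IARS and IARS2, the cytosolic and mitochondrial isoleucine enzymes, both fell, by 0.28 ± 0.09 and 0.27 ± 0.08. MARS2 and FARS2 passed under every alternative. The count of 7 genes became 3 without control replicate 1, 2 without control replicate 2, 4 without siRelB replicate 1 and 2 without siRelB replicate 2. FARSA lay just outside the threshold (0.26 ± 0.09, adjusted p = 0.0564, edgeR).

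**Figure D3:**
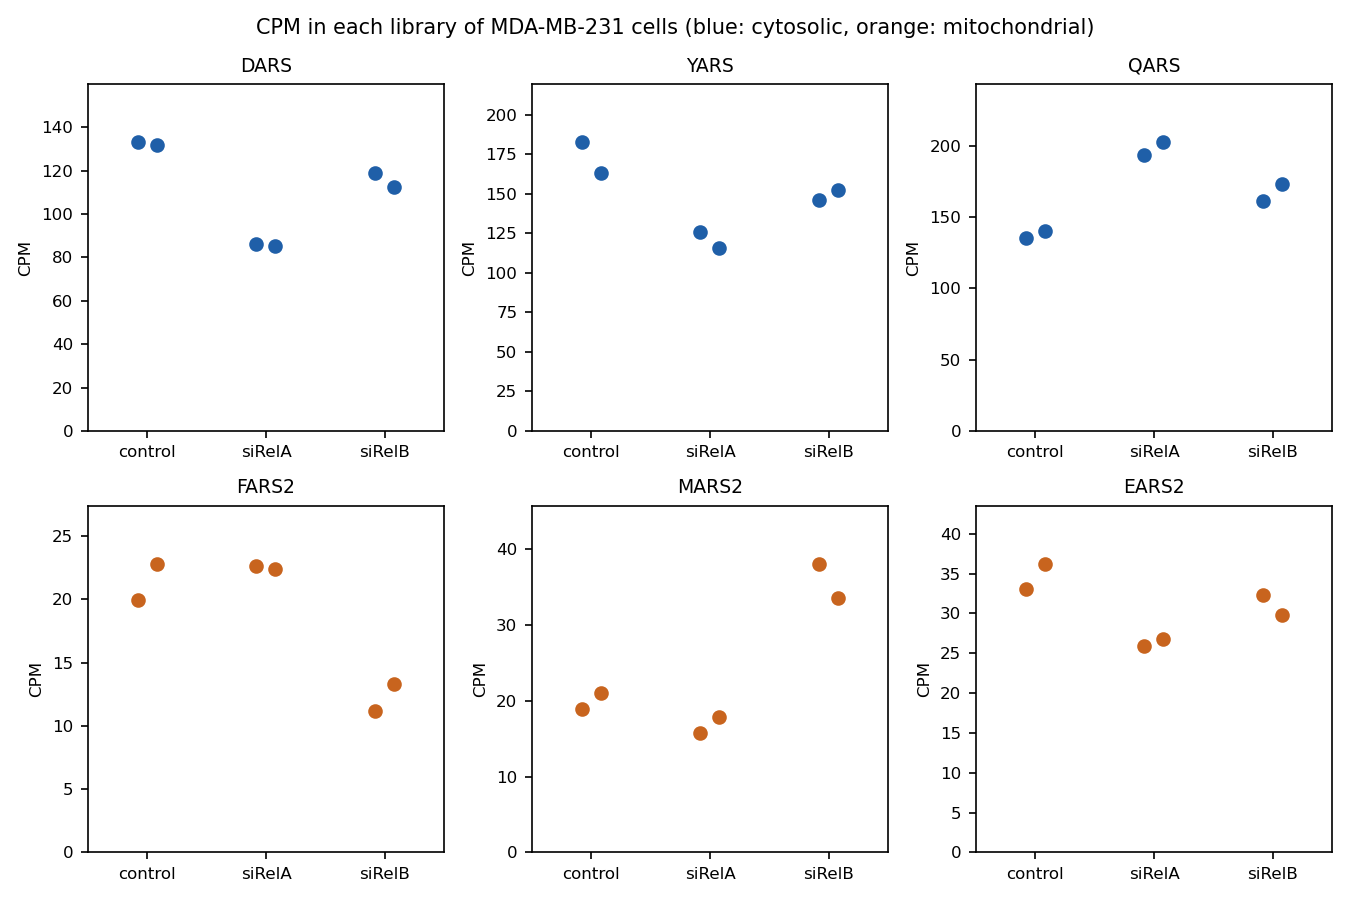
CPM of 6 synthetase genes in each MDA-MB-231 library of the siRelA and siRelB experiment; points are libraries, blue is cytosolic and orange mitochondrial, and axes start at 0. DARS and YARS are lowest after siRelA, QARS is highest there, FARS2 is lowest and MARS2 highest after siRelB.

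Set directly against each other, siRelA and siRelB cells differed in 19 of the 36 genes. Of the cytosolic genes 12 were lower and 1 higher in siRelA cells, and of the mitochondrial genes 4 were lower and 2 higher, where 14% of all genes tested were lower and 16% higher. The medians were -0.25 and -0.06. FARSA had the largest cytosolic difference, with 102 and 116 CPM in siRelA cells against 184 and 193 in siRelB cells (-0.79 ± 0.09, adjusted p = 7.89e-06, edgeR), and these groups did not overlap. CARS was lower by 0.57, TARS by 0.46, DARS by 0.44, SARS by 0.36 and NARS by 0.34 log2 units, and QARS was higher by 0.24. MARS2 had a difference of -1.09 ± 0.14 and FARS2 of 0.88 ± 0.15, the mitochondrial extremes in each direction. IARS2 was higher by 0.47 ± 0.08, and NARS2, YARS2 and CARS2 were lower by 0.55, 0.47 and 0.33. The count of 19 became 14 without either siRelA replicate, 11 without siRelB replicate 1 and 10 without siRelB replicate 2, while CARS, DARS, FARSA, NARS, TARS, FARS2, IARS2 and MARS2 passed in all cases.

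After siEZH2 more genes of each class fell than rose in both lines. The share that rose was 10.0% (cytosolic) and 18.8% (mitochondrial) in MDA-MB-231, and 0% and 12.5% in SUM149, below that of all genes. In MDA-MB-231 cells 9 cytosolic genes fell and 2 rose, and 8 mitochondrial genes fell and 3 rose, by the limma test at the same adjusted threshold. Of all genes tested in that line 27.1% fell and 29.4% rose. In SUM149 cells 14 cytosolic genes fell and 0 rose, and 7 mitochondrial genes fell and 2 rose, where 28.6% of all genes fell and 29.4% rose. The medians in VST units were -0.11 (cytosolic) and -0.13 (mitochondrial) in MDA-MB-231, and -0.26 and -0.10 in SUM149, against 0.00 for all genes in each line. The mean of the cytosolic class was 12.76 and 12.75 VST in MDA-MB-231 controls and 12.60 and 12.64 after siEZH2. In SUM149 it was 13.12 and 13.17 in controls and 12.94 and 12.90 after siEZH2. The mitochondrial mean went from 10.39 and 10.40 to 10.30 and 10.35 in MDA-MB-231, and from 10.76 and 10.78 to 10.58 and 10.59 in SUM149. Groups of the same line did not overlap in any of these means. Markers of other cells moved in the same comparisons. Of 5 haematopoietic markers 2 passed the filter, CD68 (a lysosomal protein of macrophages and other cells) and CD14. CD68 rose in both lines, while CD3E was at the lowest value in every group. CD14 passed the filter only through its SUM149 siEZH2 libraries (8.41 and 8.30 VST), so its rise there is no support. In MDA-MB-231 it had 7 and 8 implied counts in controls and 27 and 34 after siEZH2, near the lowest value. The summed implied counts of the 5 were 1434 and 1721 in MDA-MB-231 controls and 3304 and 3382 after siEZH2, and 2019 and 2449 in SUM149 controls and 5504 and 5102 after siEZH2. Nearly all of each sum was CD68, with 1424, 1707, 3266 and 3331 in MDA-MB-231 and 1980, 2427, 5386 and 5004 in SUM149. In the siRelA and siRelB experiment CD68 had counts of only 0, 5, 2, 0, 9 and 1 in MDA-MB-231. Why the experiments differ in CD68 was not tested. PTPRC, the pan-leukocyte gene, was at 0 to 2 implied counts in all 8 libraries. Of 6 fibroblast and endothelial markers DCN alone passed the filter, and their sum was 84 to 100 in all MDA-MB-231 libraries, 2024 and 2203 in SUM149 controls and 4639 and 4348 after siEZH2. Of 8 epithelial markers 6 passed the filter. EPCAM and CDH1 fell in MDA-MB-231 (-1.03 and -0.35 VST units), while in SUM149 EPCAM fell (-2.16) and KRT17, KRT5 and CDH1 rose (0.84, 0.73 and 0.21). CDH1 passed the filter only through SUM149, and its MDA-MB-231 libraries lay near the lowest value, between 7.33 and 7.72 VST. Of 5 mesenchymal markers 4 passed the filter. In MDA-MB-231 3 rose and 1 fell, and in SUM149 3 rose and 0 fell. Mean VST of ZEB1 went from 10.5 to 11.8 in MDA-MB-231 and from 10.6 to 11.4 in SUM149. The part of these markers in the synthetase changes was not tested. For genes with few reads a VST difference is smaller than the log2 fold change, so fold changes below come from the normalised counts that the VST values imply.

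The alanine and threonine enzymes changed in opposite directions in the 2 compartments. AARS, the cytosolic alanine enzyme (chr16:70251983-70289707, GRCh38, - strand), had implied normalised counts of 4863 and 5186 in MDA-MB-231 controls and 3303 and 3037 after siEZH2. In SUM149 they were 11740 and 12277 in controls and 9320 and 8689 after siEZH2. AARS was lower after siEZH2 in both lines, by 1.59-fold (-0.62 ± 0.06 VST, adjusted p = 1.5e-06, limma) and 1.33-fold (-0.41 ± 0.06, adjusted p = 6.89e-05, limma). AARS2, its mitochondrial counterpart (chr6:44298731-44313347, - strand), had 918 and 1027 in MDA-MB-231 controls and 1533 and 1653 after siEZH2. In SUM149 it had 1408 and 1325 in controls and 1661 and 1785 after siEZH2. AARS2 was higher in both lines, by 1.64-fold (0.59 ± 0.06, adjusted p = 4.87e-06, limma) and 1.26-fold (0.29 ± 0.06, adjusted p = 0.00191, limma).

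TARS, the cytosolic threonine enzyme (chr5:33440696-33468091, + strand), had implied counts of 25063 and 23258 in MDA-MB-231 controls and 16859 and 17655 after siEZH2. In SUM149 it had 13370 and 14068 in controls and 10463 and 10811 after siEZH2. TARS fell by 0.48 ± 0.06 and 0.36 ± 0.06 VST units in the 2 lines, with no overlap of the groups. TARS2, the mitochondrial enzyme (chr1:150487414-150507602, + strand), had 509 and 561 in MDA-MB-231 controls and 1061 and 1023 after siEZH2, a 1.95-fold rise (0.73 ± 0.06, adjusted p = 4.87e-07, limma). In SUM149 it had 1036 and 1126 in controls and 1270 and 1289 after siEZH2, a 1.18-fold rise (0.20 ± 0.06, adjusted p = 0.0131, limma). The SUM149 rise of TARS2 missed the threshold without control replicate 1 (0.15) or siEZH2 replicate 2 (0.19). The TARS2 rise differed between the lines by -0.53 ± 0.09 VST units (SUM149 minus MDA-MB-231, adjusted p = 0.00092, limma).

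**Figure D4:**
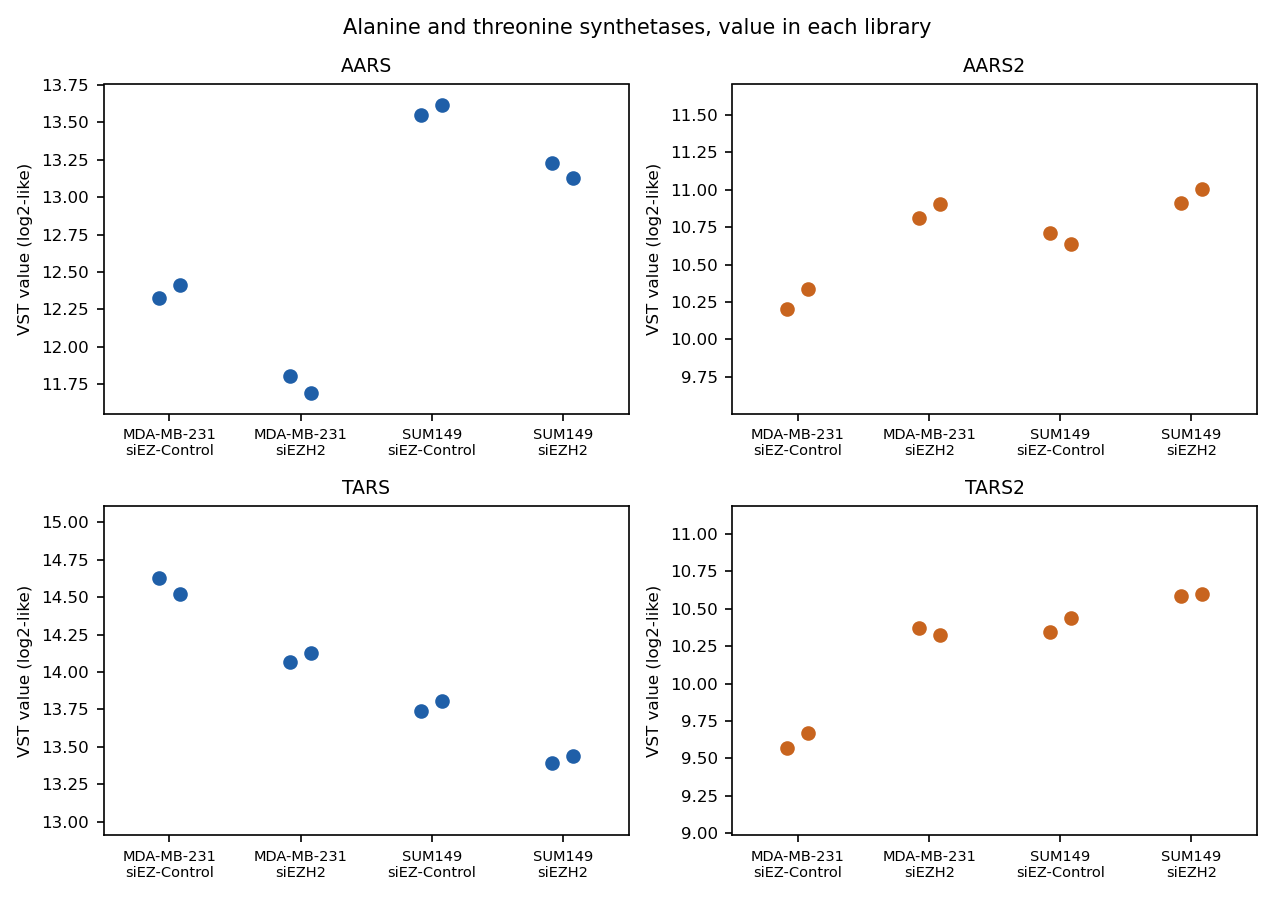
VST value in each library of the alanine (AARS, AARS2) and threonine (TARS, TARS2) enzymes, cytosolic in blue and mitochondrial in orange, on axes of equal span that do not start at 0. In each line both siEZH2 libraries lie below both controls for AARS and TARS and above them for AARS2 and TARS2.

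The tyrosine and asparagine enzymes fell in both compartments and both lines. YARS fell by 0.44 ± 0.05 VST units in MDA-MB-231 and by 0.41 ± 0.05 in SUM149. YARS2 had implied counts of 1015 and 938 in MDA-MB-231 controls and 720 and 764 after siEZH2, and 2250 and 2146 in SUM149 controls and 1321 and 1366 after siEZH2. Its fall of 0.31 ± 0.06 in MDA-MB-231 and 0.62 ± 0.06 in SUM149 differed between the lines by -0.31 ± 0.08 (adjusted p = 0.018, limma). NARS2 had 756 and 713 in MDA-MB-231 controls and 470 and 475 after siEZH2, then 1379 and 1362 in SUM149 controls and 739 and 762 after siEZH2. NARS2 fell 1.56-fold and 1.83-fold, and its cytosolic partner NARS fell by 0.24 and 0.37 VST units.

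Other mitochondrial genes that fell in both lines were EARS2 (-0.45 and -0.69), LARS2 for leucine (-0.50 and -0.53), WARS2 for tryptophan (-0.32 and -0.39) and PARS2 for proline (-0.17 and -0.24). PARS2 lay just inside the threshold in MDA-MB-231 (adjusted p = 0.0489, limma) and lost the call in 6 of 11 alternatives, among them each of the 4 that leave out a library (-0.21 to -0.13). Its SUM149 call was lost without siEZH2 replicate 2 (-0.17). FARS2 lay just outside the threshold in MDA-MB-231 (0.16, adjusted p = 0.0695). EARS2 showed 2558 and 2336 implied counts in SUM149 controls and 1370 and 1474 after siEZH2, a fall of 1.72-fold that only NARS2 exceeded in that line. VARS2, MARS2 and CARS2 did not pass the test in either line, with changes between -0.05 and 0.04. SARS2 and HARS2 fell in MDA-MB-231, by 0.23 and 0.18, and did not pass in SUM149, and RARS2 fell in SUM149, by 0.23. In MDA-MB-231 the HARS2 call was lost without control replicate 1 (-0.20) or 2 (-0.15), without siEZH2 replicate 1 (-0.09) and with no filter on low values. That of SARS2 was lost without control replicate 2 or siEZH2 replicate 1 (both -0.18).

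Among the cytosolic genes IARS, KARS, MARS and FARSA also fell in both lines, IARS by 0.34 and 0.31 VST units and MARS by 0.20 and 0.36. GARS fell in SUM149 by 0.34 ± 0.06 and had a change of -0.11 ± 0.06 in MDA-MB-231. DARS rose in MDA-MB-231, from implied counts of 3675 and 3621 to 4314 and 4519 (0.26 ± 0.05, adjusted p = 0.000863, limma), while its 4 SUM149 libraries lay between 4218 and 4463 with overlap. This difference between the lines was -0.25 ± 0.07 (adjusted p = 0.0286, limma). EPRS was at 11939 and 11437 in MDA-MB-231 controls and 11452 and 12180 after siEZH2, and went from 35847 and 35859 to 29517 and 29709 in SUM149. Its fall of 0.27 ± 0.06 in SUM149 differed from the change of 0.02 ± 0.06 in MDA-MB-231 (-0.29 ± 0.08, adjusted p = 0.0239, limma). QARS rose in MDA-MB-231 by 0.19 ± 0.07 (adjusted p = 0.0249, limma), a call lost without control replicate 1 (0.12), without siEZH2 replicate 2 (0.17), and with libraries centred on their median (0.15).

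The interaction term compared the siEZH2 effect between lines for all 36 genes. Of the cytosolic genes 2 (DARS and EPRS) and of the mitochondrial genes 3 (TARS2, AARS2 and YARS2) had a more negative effect in SUM149, and 0 of either class had a more positive one, where 10.4% of all genes had a more negative and 11.2% a more positive effect. TARS2 alone passed under every alternative. The other 4 lost the call without at least 1 library, and the count was 1 without SUM149 control replicate 1 or siEZH2 replicate 1, 2 without either MDA-MB-231 control or siEZH2 replicate 2 of that line, and 3 without SUM149 siEZH2 replicate 2. AARS2 had -0.24 without MDA-MB-231 control replicate 1, against -0.31 with all libraries.

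**Figure D5:**
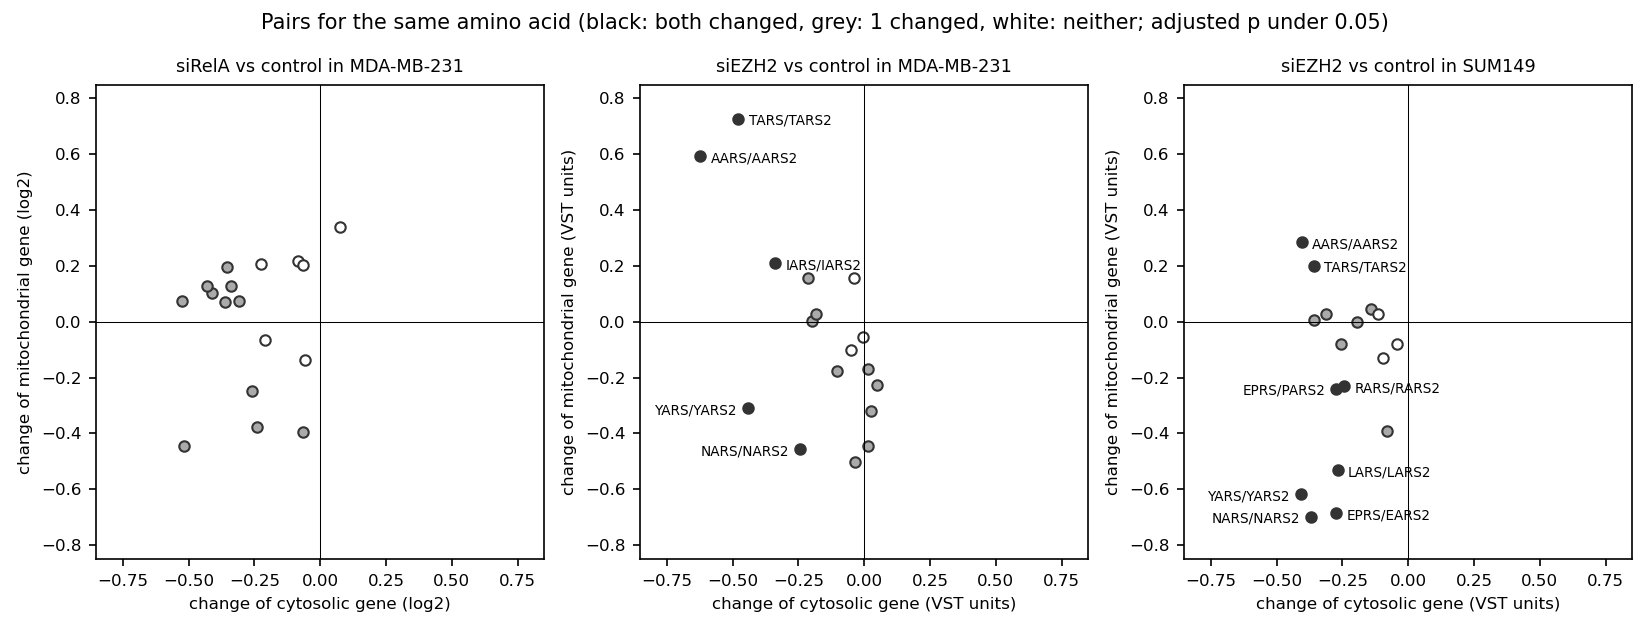
Change of the mitochondrial enzyme (y axis) against the change of the cytosolic enzyme for the same amino acid (x axis) in 3 comparisons, 17 pairings each, in log2 or VST units; EPRS is paired with EARS2 and PARS2, and FARS2 with FARSA and FARSB. AARS/AARS2 and TARS/TARS2 lie in the upper left after siEZH2 in both lines, and YARS/YARS2 and NARS/NARS2 in the lower left.

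Pairing the enzymes by amino acid gave 17 pairings, in which EPRS was set against both EARS2 and PARS2, and FARS2 against both FARSA and FARSB. After siRelA in 0 pairings did both genes change, and after siRelB both fell in 1, IARS and IARS2. After siEZH2 in MDA-MB-231 both fell in 2 pairings (NARS/NARS2 and YARS/YARS2) and they moved apart in 3 (AARS/AARS2, IARS/IARS2 and TARS/TARS2). In SUM149 both fell in 6 and they moved apart in 2, AARS/AARS2 and TARS/TARS2. IARS2 rose in MDA-MB-231 by 0.21 ± 0.06 (0.16 and not called without control replicate 2) and had a change of 0.03 ± 0.06 in SUM149. HARS and HARS2, the histidine enzymes, are neighbours on opposite strands (chr5:140673035-140691537 and chr5:140691430-140699305, GRCh38). They share 83 bases, 3.36% of the HARS2 transcript, and HARS shares 11.3% of its own with WDR55. How the counting treated strand is not given, so reads in those overlaps can belong to either gene. After siEZH2 HARS fell in SUM149 by 0.19 ± 0.06 (not called without control replicate 2, -0.15, or siEZH2 replicate 2, -0.17) and HARS2 had a change of 0.00 ± 0.07, while in MDA-MB-231 HARS2 fell by 0.18 ± 0.07 and HARS had -0.10 ± 0.06.

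Between the control cells of the 2 lines 33 of 36 synthetase genes differed, in a comparison where most of all genes tested differed too. SUM149 controls had 14 cytosolic genes higher and 4 lower than MDA-MB-231 controls, and 12 mitochondrial genes higher and 3 lower, where 41.3% of all genes tested were higher and 41.5% lower. The medians were 0.40 and 0.48 VST units, against 0.00 for all genes. These control libraries are the ones used for siEZH2 above. EPRS was 3.07-fold higher in SUM149 (1.59 ± 0.06 VST, adjusted p = 9.23e-12, limma) and AARS 2.39-fold higher (1.21 ± 0.06). NARS was higher by 0.97, LARS by 0.91 and IARS by 0.72. TARS was lower, at 1.76-fold (-0.80 ± 0.06, adjusted p = 2.03e-08, limma), and CARS was lower by 0.49, whereas TARS2 was 2.02-fold higher (0.77 ± 0.06). IARS2 (1.03 ± 0.06), YARS2 (1.00 ± 0.06) and NARS2 (0.72 ± 0.06) were the largest mitochondrial rises beside TARS2. SARS2 (-0.53), LARS2 (-0.51) and FARS2 (-0.24) were lower. Both genes were higher in 9 pairings and they differed in opposite directions in 6, among them LARS/LARS2 and CARS/CARS2. Line and culture cannot be told apart here.

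The cytosolic genes with TGATGNAA in the sequences printed above are described by their counts. After siRelA 6 of the 7 fell (TARS, GARS, IARS, CARS, MARS and NARS) with a median of -0.35, and AARS had -0.22 ± 0.09 (adjusted p = 0.0797, edgeR). Of the 9 cytosolic genes whose windows lack it, 4 fell and 1 rose, with a median of -0.08. After siRelB 1 of the 7 and 0 of the 9 fell. After siEZH2 in MDA-MB-231 5 of 7 fell (median -0.24) and 2 of 9 fell (median -0.04), and in SUM149 7 of 7 (median -0.36) and 5 of 9 (median -0.19). The shares of all genes that fell were 10.2% after siRelA, 10.8% after siRelB, and after siEZH2 27.1% (MDA-MB-231) and 28.6% (SUM149). CARS, 1 of the 7 in SUM149, lost its call in 8 of 11 alternatives, with -0.08 without siEZH2 replicate 2 against -0.14 with all libraries. YARS2, the mitochondrial gene with the match, is the gene that lay just outside the threshold after siRelA and fell in both lines after siEZH2. The split covers the 16 of 20 cytosolic genes with a window, and the rest are in neither set. Of all 20, 13 fell after siRelA and 1 after siRelB, while 9 (MDA-MB-231) and 14 (SUM149) fell after siEZH2. Some genes with no window thus fell after siRelA and, in each line, after siEZH2. Which set those genes would join is unknown. The search and this split were made with the gene changes known, and no test was made of the difference between the sets.

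Genes of the surrounding pathways are given from lists. The counts below stand beside the shares of all genes tested, of which 10.2% fell and 8.82% rose after siRelA, 10.8% and 7.45% after siRelB, 27.1% and 29.4% after siEZH2 in MDA-MB-231, and 28.6% and 29.4% in SUM149. Of the scaffold proteins of the multisynthetase complex, AIMP2 fell after siRelA by 0.40 ± 0.11, and all 3 (AIMP1, AIMP2 and EEF1E1) rose after siRelB, EEF1E1 by 0.97 ± 0.18. After siEZH2 all 3 fell in both lines, AIMP2 by 0.50 and 0.45 VST units. The ATF4 pathway, amino acid transporters and synthesis enzymes included, had 10 of 32 genes lower and 1 higher after siRelA, and 2 lower and 0 higher after siRelB. That is 31.2% lower after siRelA, and 6.25% after siRelB, below the share of all genes. CTH (-1.02), MTHFD2 (-0.89) and CHAC1 (-0.85) fell most after siRelA and SLC7A11, the cystine transporter, rose by 0.49. After siEZH2 16 of 31 (51.6%) fell and 4 rose in MDA-MB-231, and 22 (71.0%) fell and 3 rose in SUM149.

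ATF4 itself had counts of 3328 and 3230 in the controls, 2285 and 2492 after siRelA and 3092 and 3294 after siRelB. It fell by 0.48 ± 0.10 after siRelA (adjusted p = 0.00224, edgeR) and did not pass after siRelB (0.21 ± 0.10, adjusted p = 0.149). Its implied counts went from 8475 and 8447 to 4139 and 4281 after siEZH2 in MDA-MB-231, and from 15941 and 16240 to 10371 and 10174 in SUM149. These were falls of 0.96 ± 0.05 and 0.63 ± 0.05 VST units, with no overlap of the groups. SLC7A11 fell by 2.00 VST units in MDA-MB-231 and by 1.15 in SUM149. DDIT4 went the other way, with the largest rise of the ATF4 pathway list in each line (0.77 and 0.32). ASNS, the asparagine synthetase, fell by 0.23 and 0.83. In MDA-MB-231 controls it had 2124 and 2014 implied counts here, but 10 and 24 counts in the siRelA and siRelB experiment. Why the experiments differ in ASNS was not tested. MYC, a transcription factor known to promote protein synthesis genes, fell by 0.46 ± 0.09 log2 units after siRelA and by 0.70 and 0.51 VST units after siEZH2 in the 2 lines.

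Among eIF2 and its kinases and exchange factors, EIF2AK1 fell by 1.52 ± 0.09 after siRelA, and EIF2B2 by 1.05 and 0.87 VST units after siEZH2. In all, 3 of 14 (21.4%) fell after siRelA. After siRelB 2 (14.3%) fell, near the 10.8% of all genes, and 3 rose. After siEZH2 6 (42.9%) and 7 (50.0%) fell, with 1 rise in each line. Cytosolic elongation factors had EEF2 lower after siRelA (-0.30 ± 0.08) and after siEZH2 (-0.32 and -0.35), with 1 of 5 genes down after siRelA, 0 after siRelB, and 2 and 4 of 6 after siEZH2.

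The other genes of mitochondrial translation changed as follows. Of 78 mitochondrial ribosomal protein genes, 13 (16.7%) fell and 2 rose after siRelA (median -0.10), where 10.2% of all genes fell. After siRelB 5 (6.41%) fell and 8 (10.3%) rose (median 0.12), near the 10.8% and 7.45% of all genes. After siEZH2 32 (41.0%) fell and 6 rose in MDA-MB-231, and 45 (57.7%) fell and 2 rose in SUM149, MRPL20 having the largest fall in each (-1.31 and -1.23). Mitochondrial translation factors had 1 of 14 (7.14%) down after siRelA, near the share of all genes: TUFM, the elongation factor, at -0.34 ± 0.09. After siRelB 4 fell and 2 rose. After siEZH2 7 of 13 fell and 3 rose in MDA-MB-231, and 6 fell and 1 rose in SUM149. GATC, a subunit of the enzyme that makes mitochondrial glutaminyl-tRNA from glutamyl-tRNA, fell by 1.40 ± 0.06 and 1.09 ± 0.06 VST units. That enzyme works on the product of EARS2, which fell in the same comparisons. Of its other subunits, QRSL1 rose in both lines and GATB did not pass the test in either. Mean VST of QRSL1 went from 9.86 to 10.07 in MDA-MB-231 and from 9.93 to 10.16 in SUM149. Mean VST of GATB went from 10.23 to 10.31 and from 10.37 to 10.51.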

How the data were processed

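The 36 genes and all gene lists were chosen with earlier results of these data known, and the chromatin libraries (30 of 44 samples) were not analysed here. For the siRelA and siRelB experiment the authors deposited raw read counts per gene, with build hg19, DESeq2 1.20.0, featureCounts 1.5.0-p3 and HISAT2 2.0.5 in the submitters' processing notes. For the siEZH2 experiment the authors deposited log2-like variance-stabilised values (VST), already normalised between libraries, with Salmon, STAR 2.5.2b, hg19, DESeq2 and cutadapt in the same notes. The sources used here do not give the annotation release, strand setting or transformation settings. Positions are GENCODE 44 on GRCh38 and were not converted. Older symbols were matched to current ones through RefSeq synonyms, 36 of 36.

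Counts were fitted with edgeR 4.0.16 (TMM, default filter on low counts, quasi-likelihood, term for group) on all 6 libraries: 15930 genes, 3 residual degrees of freedom, biological coefficient of variation 10.1%. VST values were fitted with limma 3.58.1 (variance trend) on all 8 libraries: 12356 genes with 2 or more libraries at least 1 unit over the table's minimum, 4 residual degrees of freedom. Changes were called at a Benjamini-Hochberg adjusted p under 0.05. The edgeR test gives no standard error, so those printed are the absolute log2 change divided by the square root of the F statistic. Both scripts were tested on simulated data. Implied normalised counts invert the closed form of the transformation. Between 87.8% and 91.0% of low values then fell within 0.1 of a whole number of reads, and edgeR on these counts was an alternative chosen after seeing the data. Named genes were, per class and comparison, up to 6 called members with the largest change, the pairs, GARS, KARS, EPRS, HARS and HARS2, those nearest the threshold, and up to 4 called genes per other list. DESeq2 1.42.0, R 4.3.3 and Python 3.11.15 were used for alternatives and tables. The labels call the replicates biological duplicates but do not say how they were cultured, so p-values measure the spread between these libraries. One gene of the haematopoietic marker list is not reported here.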

Additional observations from a re-analysis of the deposited data

Results flagged for a closer look

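The siEZH2 effect on 5 synthetase genes differed between the cell lines by the interaction term of limma at an adjusted p under 0.05. All 5 were more negative in SUM149, which is 13.9% of the 36 genes, near the 10.4% of all genes tested, and 0 were more positive, against 11.2% of all genes. TARS2 alone passed under every alternative, and AARS2, DARS, YARS2 and EPRS lost the call in 5, 7, 5 and 9 of 14 alternatives. The differences, SUM149 minus MDA-MB-231, were -0.53 VST units for TARS2 (rise of 0.73 in MDA-MB-231 and 0.20 in SUM149), -0.31 for AARS2 (0.59 and 0.29), -0.25 for DARS (0.26 and 0.01), -0.31 for YARS2 (-0.31 and -0.62) and -0.29 for EPRS (0.02 and -0.27). EZH2 itself fell by 2.52 in MDA-MB-231 and 2.00 in SUM149, and the part of that difference in these values was not tested. Groups of 2 libraries allow no check for a library far from the others.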

How the results depend on the processing

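No synthetase gene that was called changed direction under any alternative run. With all libraries kept, the counts of called genes stayed within 1.5 times of 15 (siRelA), 7 (siRelB), 19 (siRelA against siRelB), 22 and 23 (siEZH2 in MDA-MB-231 and SUM149) and 33 (control lines) under other normalisations, filters, variance models and DESeq2. The exception was the difference of the siEZH2 effects between lines, 5 genes in limma and 2 by edgeR on the recovered counts. Leaving out 1 library in turn gave 8 to 13 genes for siRelA, 2 to 4 for siRelB, 10 to 14 for siRelA against siRelB, 17 to 21 and 20 to 23 for siEZH2, 1 to 7 for the difference between lines and 29 to 32 for the control lines. A group then holds 1 library, which is assumed to vary like the others. Calls that passed under every alternative numbered 7 of 15, 2 of 7, 8 of 19, 16 of 22, 19 of 23, 1 of 5 and 27 of 33, in the same order.

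The labels number the replicates but name no shared batch, and the deviations of same-numbered libraries had correlations of -0.01, -0.02 and 0.05 between the groups of the siRelA and siRelB experiment, 0.09 in MDA-MB-231 and -0.12 in SUM149 for siEZH2. With the replicate block the counts were 15, 7 and 19 for siRelA, siRelB and their difference, 21 and 22 for siEZH2, 4 for the difference between lines and 32 for the control lines.

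With 2 libraries per group and lower counts, the mitochondrial genes had wider errors in the count table than the cytosolic genes, and a gene that did not pass is not shown to be unchanged.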
